A study of Homo sapiens with 8 samples.

Results

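The vacuolar proton pump (V-ATPase) was followed through 10 of its subunit genes in K562 cells, a human line established from a chronic myeloid leukaemia, cultured with or without Lip-1. The 10 genes were taken by symbol from the 19447 named genes of the count table, and all 10 were found there and passed the filter on low counts. All 8 libraries came from K562 labelled as wild type. The control group held 4 libraries without Lip-1 (replicates 1 to 4, Day 0), the 10 µM group held 3 libraries (replicates 2 to 4) and the 20 µM dose had a single library (replicate 1), both doses after 24 h and labelled Day 1. Treatment and day label coincide, so they cannot be told apart, and the labels name no vehicle. They do not say that replicates were separate cultures, so p-values measure the spread between these libraries, which may be technical. The labels give the drug only as Lip-1. That abbreviation usually stands for liproxstatin-1, a radical-trapping compound that blocks ferroptosis.

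The V-ATPase is a rotary machine that uses ATP to pump protons into lysosomes, endosomes and the Golgi. Its cytosolic V1 sector carries the A and B subunits, which form the ring that hydrolyses ATP, a central rotor made of D and F, peripheral stalks made of E and G, and the C and H subunits, which join the stalks to the membrane and regulate coupling. Its membrane sector V0 holds the proteolipid ring, the a subunit, the d subunit that links ring and rotor, and the small e subunit. Many subunit genes belong to the network of lysosomal genes controlled by the MiT-TFE transcription factors (TFEB, TFE3 and MITF), which bind E-box sequences with the core CACGTG. In this lineage acidified endosomes are known for releasing iron from transferrin.

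Promoter sequences were in the RefSeq table (GRCh38.p14) for 5 of the 10 members and for ATP6V0B, another V0 subunit. A stretch of 30 bases upstream of the annotated start is shown for 4 of these members and ATP6V0B, 5′ to 3′. It was chosen because it holds CACGTG, in capitals, or the matching place in promoters without it. Which factors bind these letters was not tested. The stretch is placed around the CACGTG where there is one, and otherwise covers bases -70 to -41. They lie at chr9:114587699-114587728 on the plus strand for ATP6V1G1, chr16:67481199-67481228 on the minus strand for ATP6V0D1, chr22:17628863-17628892 on the minus strand for ATP6V1E1, chr7:128862786-128862815 on the plus strand for ATP6V1F and chr1:43974900-43974929 on the plus strand for ATP6V0B. In GENCODE 29 a longer transcript extends its UTR over the stretches of ATP6V0D1 and ATP6V0B, while the other 3 stretches overlap no annotated exon. The stretch of ATP6V1F lies within the span of KCP and that of ATP6V1E1 within the span of BCL2L13, both on the other strand.
ATP6V1G1: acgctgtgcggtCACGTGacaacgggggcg
ATP6V0D1: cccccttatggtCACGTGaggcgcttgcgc
ATP6V1E1: gtcagcgacgtagaaggacccgaggacgcg
ATP6V1F: ggctgggaggactgcgcatgctcgaagggt
ATP6V0B: ggtCACGTGgtaccggcgcatCACGTGggc

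Within the whole window of 250 bases before and 50 bases after the start, CACGTG was found in 2 of the 5 members, against 7.43% of 27305 promoters and 8.92% of the 15096 promoters of genes in the count table. It began at base -58 in ATP6V1G1 and at base -59 in ATP6V0D1, counted from the start. Both genes also held the longer strings TCACGTGA and TCACGTGAC around it, which occurred in 1.04% and 0.901% of all promoters and in 1.44% and 1.28% of those of genes in the table. Both strands were searched, and each longer string contains the shorter ones. ATP6V0B held CACGTG at bases -57 and -39, and among 13 other V-ATPase genes with a promoter ATP6V0E2 was the only further one with it. The related strings TCATGTG and TCACATG occurred in 0 and 1 of the 5 members (ATP6V1F), against 2.99% and 3.39% of promoters. The genes with CACGTG did not share a direction at 10 µM. ATP6V0D1 rose (log2 fold change 0.40) and ATP6V0B fell (-0.39), while ATP6V1G1 (0.16) and ATP6V0E2 (0.16) did not pass the test. Both calls were lost when some single libraries were left out. Whether CACGTG has a part in these changes was not tested.

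Total counts ran from 71151415 to 141307169 per library. Levels are given as CPM, a gene's count scaled to the same total in every library, and the members' counts ran from 2200 to 35765 per library. Erythroid markers of K562 were abundant (10 of 10 in the table, summed level 4959 to 8073 CPM in the controls, 4503 to 5546 CPM at 10 µM and 3235 CPM at 20 µM, led by the fetal globin HBG2). The erythroid genes did not move together. HBG2 stood at 2044 to 3560 CPM in the controls, 1711 to 2354 CPM at 10 µM and 1469 CPM at 20 µM. TFRC stood at 648 to 849, 1107 to 1329 and 495 CPM, and GATA1 at 185 to 254, 184 to 235 and 63.5 CPM. Markers of other cell types were low, and none was at 0 in all 8 libraries. Lymphocyte markers summed to 12.9 to 17.0 CPM in the controls, 13.6 to 22.8 CPM at 10 µM and 6.11 CPM at 20 µM, and epithelial markers to 28.0 to 54.1, 31.7 to 42.0 and 17.6 CPM. Fibroblast markers summed to 0.670 to 3.89, 0.928 to 2.82 and 9.51 CPM, and endothelial markers to 1.08 to 1.83, 1.83 to 2.72 and 0.781 CPM. The myeloid gene LYZ stood at 106 to 124 CPM in controls 1 and 4 and 10 µM replicate 4, and at 17.5 to 26.2 CPM in the other 5 libraries. The highest values of the myeloid markers CD14, CSF1R and MPO in any library were 1.41, 0.165 and 0.0413 CPM. The part of these markers in the results was not tested, and in bulk RNA fewer cells of a type and less RNA per cell cannot be told apart.

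In the ring that hydrolyses ATP, the B2 subunit was higher in every treated library and the catalytic A subunit was not. ATP6V1A (chromosome 3, 113747019 to 113812056, hg38) stood at 72.6, 101, 92.5 and 83.95 CPM in controls 1 to 4, at 106, 109 and 95.6 CPM in 10 µM replicates 2 to 4 and at 41.6 CPM at 20 µM. The 10 µM libraries overlapped the controls, while the 20 µM library lay below every other library. ATP6V1B2 (chromosome 8, 20197367 to 20226819), the widely expressed form of the B subunit, stood at 127, 119, 115.5 and 139.6 CPM in the controls, at 181, 187 and 201 CPM at 10 µM and at 288 CPM at 20 µM. All 4 treated libraries lay above every control, with the 20 µM library highest.

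Of the rotor subunits, D was higher in the treated libraries and F was not. ATP6V1D (chromosome 14, 67294371 to 67360265) stood at 28.2, 27.2, 27.8 and 31.7 CPM in the controls, at 36.9, 44.3 and 50.8 CPM at 10 µM and at 55.65 CPM at 20 µM. Every treated library lay above every control. ATP6V1F (chromosome 7, 128862826 to 128865844) stood at 151, 167, 172 and 149.7 CPM in the controls, at 185, 145 and 123 CPM at 10 µM and at 146 CPM at 20 µM. Here the groups overlapped, with 10 µM replicate 2 highest and replicate 4 lowest of all 8 libraries. Both genes overlap a gene on the other strand. ATP6V1F shares 187 of its 789 exon bases (23.7%) with KCP, and ATP6V1D shares 269 of 4251 (6.33%) with EIF2S1. KCP stood at 0.177 to 1.93 CPM in the controls, 4.83 to 8.79 CPM at 10 µM and 231 CPM at 20 µM, and EIF2S1 at 207 to 258, 155 to 187 and 139 CPM. Whether the counting used strand is not given in the sources used here, so reads from the shared bases cannot be told apart.

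The peripheral stalk gene ATP6V1E1 (chromosome 22, 17592136 to 17628818) had closely spaced values in each group. It stood at 136, 121, 127 and 134 CPM in the controls, at 191, 181 and 198 CPM at 10 µM and at 202 CPM at 20 µM. All treated libraries lay well above the controls. Its partner ATP6V1G1 (chromosome 9, 114587746 to 114598373) stood at 113, 99.2, 106 and 111 CPM in the controls, at 119, 132 and 142 CPM at 10 µM and at 137 CPM at 20 µM. The groups did not overlap in CPM, but with the TMM factors that the test uses to scale libraries, 10 µM replicate 2 (115 CPM) lay below control 3 (118 CPM). ATP6V1E1, ATP6V1G1 and ATP6V0E1 have processed copies elsewhere in the annotation, so how reads were split between gene and copy is uncertain.

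The C, H and d subunits, which join the sectors, were higher in every treated library, and the e subunit was not. ATP6V1C1 (chromosome 8, 103021063 to 103073051), which is released when V1 leaves the membrane, stood at 80.1, 97.2, 96.6 and 88.5 CPM in the controls, at 124, 150.4 and 149 CPM at 10 µM and at 149 CPM at 20 µM. ATP6V1H (chromosome 8, 53715557 to 53843558), which silences free V1, stood at 39.6, 37.4, 39.7 and 37.4 CPM in the controls, at 53.3, 50.8 and 58.5 CPM at 10 µM and at 82.8 CPM at 20 µM. The controls spanned little more than 2 CPM for ATP6V1H, and the 20 µM library stood apart above the 10 µM libraries. ATP6V0D1 (chromosome 16, 67438014 to 67481237), the d subunit, stood at 82.2, 73.7, 75.55 and 76.0 CPM in the controls, at 131, 94.3 and 106 CPM at 10 µM and at 138 CPM at 20 µM. No control reached the lowest treated library, and the 10 µM libraries were more spread than the controls. ATP6V0E1 (chromosome 5, 172983757 to 173035445), the small e subunit, stood at 90.3, 73.3, 82.5 and 97.2 CPM in the controls, at 82.9, 79.8 and 106 CPM at 10 µM and at 89.4 CPM at 20 µM, and the groups overlapped.

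**Figure D1:**
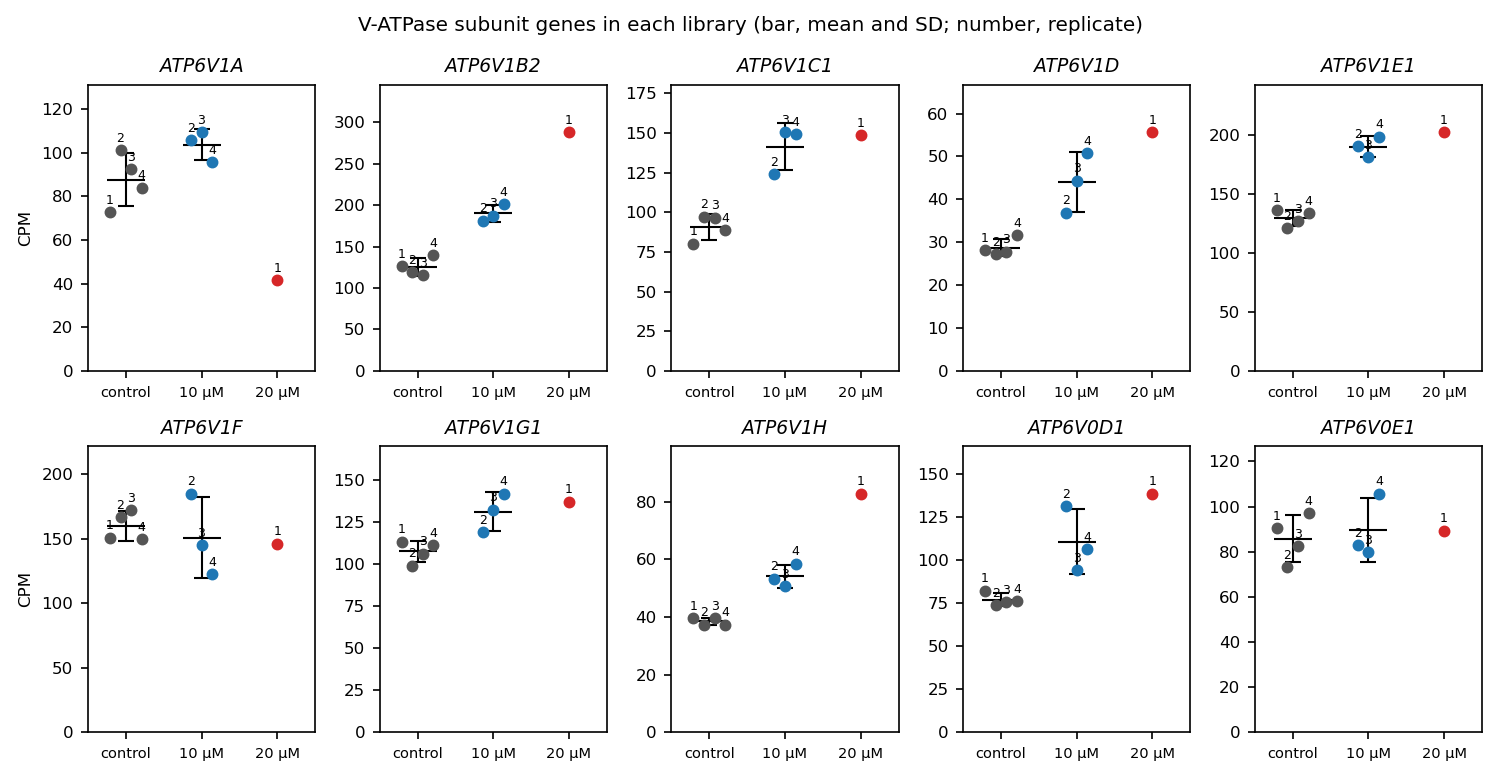
CPM (y axis, from 0) of the 10 V-ATPase members in the controls, at 10 µM and at 20 µM (x axis), 1 point per library numbered by replicate, with mean and SD for groups of more than 1 library. In 7 of the 10 panels every treated library lies above every control (in 6 with TMM factors, where ATP6V1G1 overlaps), and in the ATP6V1A panel the 20 µM library (41.6 CPM) lies below all others.

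The comparison of the 4 treated libraries with the 4 controls asked which subunit genes change with Lip-1 over both doses. It used edgeR's quasi-likelihood test over all 13101 genes that passed the filter, with Benjamini-Hochberg adjustment at 0.05. Of the 10 members 4 rose and 0 fell, against 14.2% of all genes called (7.47% higher and 6.69% lower). All 4 were V1 genes, as are most of the 10 members. ATP6V1B2 rose by 0.66 on the log2 scale (SE 0.16, edgeR adjusted p = 0.0347), from 125 ± 10.7 CPM (SD, n = 4) to 214 ± 49.7 CPM (n = 4). ATP6V1D rose by 0.59 (SE 0.14, edgeR adjusted p = 0.0341), ATP6V1C1 by 0.54 (SE 0.13, edgeR adjusted p = 0.0339) and ATP6V1E1 by 0.46 (SE 0.10, edgeR adjusted p = 0.0248). ATP6V1H (0.55, edgeR adjusted p = 0.0583) and ATP6V0D1 (0.495, edgeR adjusted p = 0.0503) missed the threshold. Both passed with DESeq2 (DESeq2 adjusted p = 0.0354 and 0.0305), with upper-quartile scaling of libraries and with the kind of library name as a covariate. Neither passed with RLE scaling of libraries, no filter, limma-voom or the replicate block. ATP6V1G1 stood at 0.18, ATP6V0E1 at -0.06, ATP6V1A at -0.12 and ATP6V1F at -0.21. The median log2 fold change of the members was 0.48, beside 0.08 over all genes. With the replicate number as a block the same 4 members were called, where 21.5% of all genes were. In 7 of the 10 members every treated library lay above every control in CPM, as in 18.1% of all genes, and with TMM factors in 6, all but ATP6V1G1, as in 13.6% of all genes. In CPM 28.6% of all genes had no overlap in either direction. The 4 calls rest on the full set of libraries. All 4 were lost without any single control or without 10 µM replicate 3 or 4 (edgeR adjusted p from 0.0506 to 0.109, with 64 to 814 genes called over the whole table), and all 4 remained without 10 µM replicate 2 or the 20 µM library.

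Against the controls, the 10 µM libraries alone had more members past the threshold. In a fit with 3 dose levels over 14857 genes, 6 of the 10 members rose and 0 fell, against 19.1% of all genes called (9.34% higher and 9.79% lower). They were the 4 above and the 2 that had missed the threshold. ATP6V1C1 rose by 0.51 (SE 0.13, edgeR adjusted p = 0.0241), from 90.6 ± 8.05 CPM (SD, n = 4) to 141.2 ± 14.9 CPM (n = 3). ATP6V1D rose by 0.49 (SE 0.12, edgeR adjusted p = 0.0229), ATP6V1B2 by 0.48 (SE 0.09, edgeR adjusted p = 0.00818) and ATP6V1E1 by 0.43 (SE 0.08, edgeR adjusted p = 0.0101). ATP6V0D1 rose by 0.40 (SE 0.12, edgeR adjusted p = 0.0487) and ATP6V1H by 0.36 (SE 0.09, edgeR adjusted p = 0.0280). The other 4 did not pass, at 0.16 for ATP6V1G1, 0.11 for ATP6V1A, -0.07 for ATP6V0E1 and -0.21 for ATP6V1F (SE 0.16). The median of the members was 0.38, beside 0.05 over all genes. With the replicate block the same 6 members were called, where 31.3% of all genes were. The 10 µM libraries lay above every control in 7 of the 10 members and in 21.8% of all genes in CPM, and in 6 members and 15.8% of all genes with TMM factors. In CPM 32.6% of all genes had no overlap in either direction. ATP6V1B2 and ATP6V1E1 kept their call under all 16 alternatives run for this comparison. ATP6V1C1 lost it without control 4, 10 µM replicate 3 or 10 µM replicate 4 (edgeR adjusted p = 0.0618, 0.0834 and 0.0620), and ATP6V1D without control 2 or 3 or 10 µM replicate 3 or 4 (edgeR adjusted p from 0.0542 to 0.0870). ATP6V1H lost it without control 2 or 4 or 10 µM replicate 3 or 4 (edgeR adjusted p from 0.0618 to 0.0851). ATP6V0D1 lost it under 10 alternatives and stood at 0.23 without 10 µM replicate 2 (edgeR adjusted p = 0.117).

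The single 20 µM library differed from the 10 µM libraries in 3 members. The fit assumes that this library varies like the others, and the contrast shares the 10 µM libraries with the one before it. Over all genes 26.3% were called (11.7% higher and 14.6% lower). ATP6V1A was lower by 1.32 on the log2 scale (log2 fold change -1.32, SE 0.24, edgeR adjusted p = 0.00477), at 41.6 CPM against 104 ± 7.15 CPM (SD, n = 3) at 10 µM. ATP6V1H was higher by 0.61 (SE 0.14, edgeR adjusted p = 0.0114, and 0.0812 with the replicate number as a block), and ATP6V1B2 by 0.60 (SE 0.13, edgeR adjusted p = 0.0101). The other 7 did not pass, with log2 fold changes from -0.05 (ATP6V1F) to 0.34 (ATP6V1D), and the members' median was 0.08, beside 0.01 over all genes. The fall of ATP6V1A ranged from -1.42 to -0.89 over the 15 alternatives and was called in each. It was -0.89 with the replicate block. Control 1, which has the number of the 20 µM library, was the lowest control for ATP6V1A (72.6 CPM). Without 10 µM replicate 2, ATP6V0D1 also passed (0.47, edgeR adjusted p = 0.0312).

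**Figure D2:**
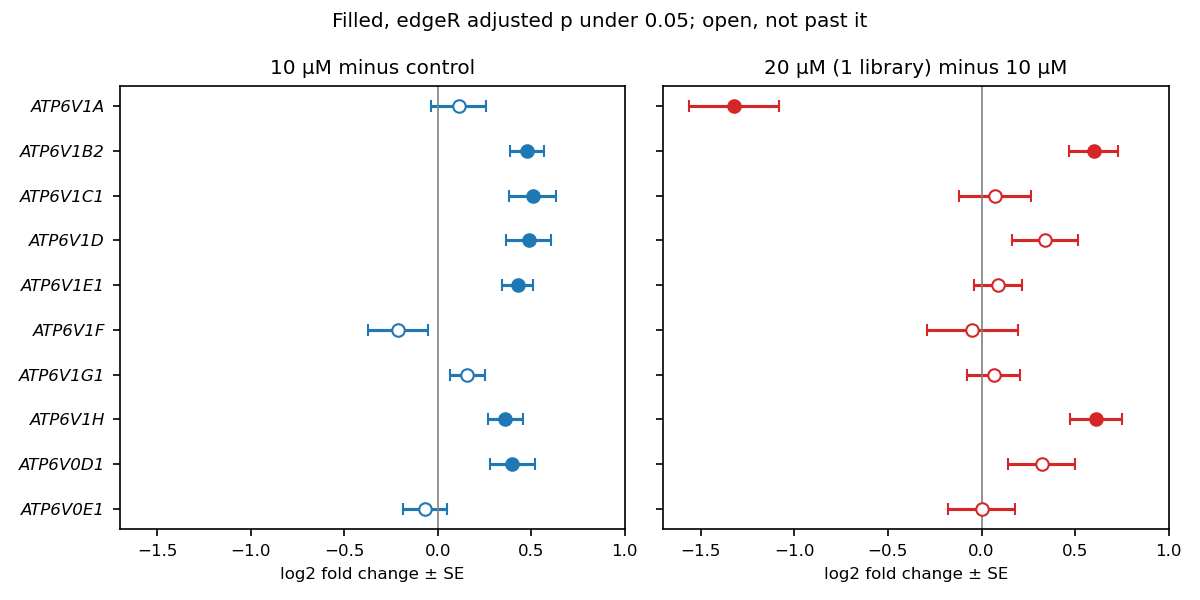
Log2 fold changes with SE (x axis) of the 10 members (y axis) at 10 µM against control (left) and in the 20 µM library against 10 µM (right), with filled points past an edgeR adjusted p of 0.05. On the left 6 members are filled, all higher, and on the right ATP6V1A lies at -1.32 while ATP6V1B2 and ATP6V1H lie at 0.60 and 0.61.

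Subunits that sit side by side in the pump were also compared within each library, where the scaling between libraries drops out. These pairs follow known contacts and were looked at with the values already seen, so no test is given. The share of other gene ratios that separate the groups, or shift alike by replicate number, was not computed. Levels per length are counts per kilobase of annotated exon, scaled to the same sum in every library (TPM). The ratio of ATP6V1A to ATP6V1B2 was 0.874, 1.30, 1.22 and 0.916 in controls 1 to 4, 0.890, 0.889 and 0.723 at 10 µM and 0.220 at 20 µM. It was lower in the treated library than in the control of the same number in all 4 pairs, although 10 µM replicates 2 and 3 lay between controls 1 and 4, and the 20 µM library was by far the lowest. The rotor ratio of ATP6V1D to ATP6V1F was 0.0300 to 0.0393 in the controls, 0.0370 to 0.0767 at 10 µM and 0.0705 at 20 µM, and 10 µM replicate 2 lay within the range of the controls. By number it was higher in the treated library in all 4 pairs. The stalk ratio of ATP6V1E1 to ATP6V1G1 was steady in the controls, at 0.485 to 0.495. It was higher at 10 µM (0.555 to 0.651) and at 20 µM (0.599), with no overlap. A further ratio, of ATP6V1H to ATP6V1C1, had no shared direction. It was 0.442 to 0.568 in the controls, 0.388 to 0.494 at 10 µM and 0.641 at 20 µM. By number it was higher in the treated library in 2 pairs and lower in 2.

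**Figure D3:**
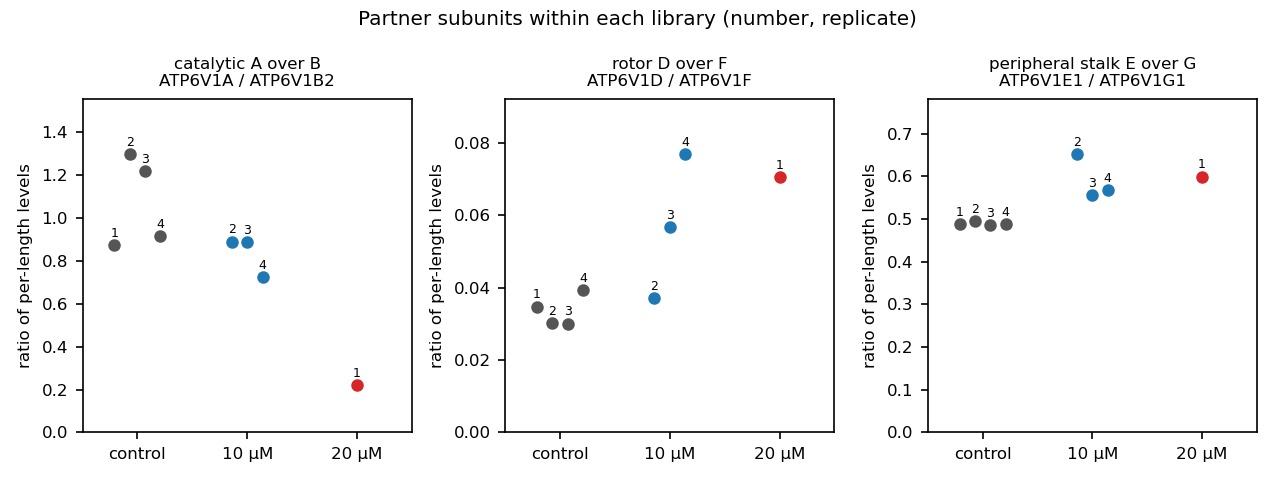
Ratio of per-length levels (y axis, from 0) within each library for 3 pairs of neighbouring subunits, in the controls, at 10 µM and at 20 µM (x axis), 1 point per library numbered by replicate. The A to B ratio is 0.220 in the 20 µM library, and the E to G ratio is 0.555 to 0.651 in the treated libraries against 0.485 to 0.495 in the controls.

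The per-length levels of the members spanned a wide range in the controls. ATP6V1F was highest at 839 ± 70.5 TPM (SD, n = 4), followed by ATP6V1G1 (341 ± 14.2), ATP6V0E1 (218 ± 23.7) and ATP6V1E1 (166 ± 6.12). ATP6V1A (70.7 ± 11.2), ATP6V1B2 (66.2 ± 5.43) and ATP6V1C1 (64.1 ± 6.80) came next, with ranges that overlapped from one to the next. ATP6V0D1 (38.7 ± 1.14), ATP6V1H (31.3 ± 0.777) and ATP6V1D (27.9 ± 1.94) were lowest, and the ranges of the last 2 overlapped. At 20 µM ATP6V1A was the lowest of the 10 (35.1), below ATP6V1D (56.6). The order depends on the length used. With the longest transcript in place of all exons, ATP6V1E1 (263) stood above ATP6V0E1 (170.5) and ATP6V0D1 (64.6) above ATP6V1A (54.4).

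**Figure D4:**
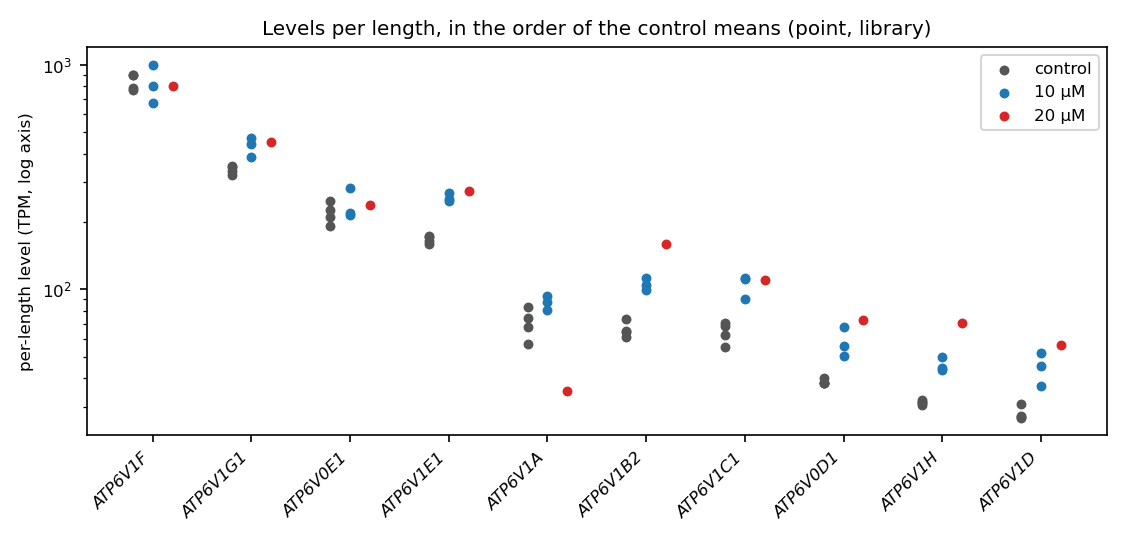
Per-length level (y axis, log scale, TPM) of each member (x axis, in the order of the control means), 1 point per library. ATP6V1F leads at 839 in the controls, and the 20 µM point of ATP6V1A (35.1) lies below its other points.

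Where a subunit has several genes, 1 of them gave nearly all of the signal for B, C, E, G, d and e. By share of the family's per-length level in the controls, ATP6V1B2 held 99.9 to 100.0%, ATP6V1E1 98.2 to 99.4%, ATP6V1G1 99.9 to 99.99%, ATP6V0D1 99.9 to 100.0%, ATP6V1C1 92.3 to 99.9% and ATP6V0E1 92.6 to 96.4%. The tissue-restricted ATP6V1G3 had 0 counts in every library. The a subunit, which sets where the pump goes, was shared, with 43.9 to 56.4% for TCIRG1 (a3), 29.4 to 42.9% for ATP6V0A1 and 13.1 to 18.2% for ATP6V0A2 in the controls. In the 20 µM library ATP6V0E1 held 98.5% of the e subunit, since ATP6V0E2 stood at 5.58 CPM there against 21.3 ± 5.62 CPM (SD, n = 4) in the controls and 26.2 ± 6.96 CPM (n = 3) at 10 µM.

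Of the 16 other genes of the pump and its accessory proteins, 11 were tested over both doses, where 1 rose and 0 fell (14.2% of all genes were called), and 14 at 10 µM, where 2 rose and 1 fell (19.1% of all genes). ATP6AP1, an accessory protein needed for assembly, rose by 0.44 over both doses (edgeR adjusted p = 0.0427) and by 0.39 at 10 µM (edgeR adjusted p = 0.0357). The call over both doses was lost without any single library other than the 20 µM one, and the call at 10 µM without control 2, 3 or 4 or any of the 10 µM libraries. ATP6V0A2 rose at 10 µM by 0.57 (edgeR adjusted p = 0.0108), from 71.05 ± 11.7 CPM (SD, n = 4) to 115 ± 4.87 CPM (n = 3). ATP6V0B, a ring subunit, fell by 0.39 at 10 µM (edgeR adjusted p = 0.0262), from 177 ± 10.1 to 147 ± 11.1 CPM, and lost its call without control 3 or 4 or 10 µM replicate 3 or 4 (edgeR adjusted p from 0.0558 to 0.0970). ATP6V1E2 stood at 0.96 at 10 µM (edgeR adjusted p = 0.101). It passed with the replicate block (1.14, edgeR adjusted p = 0.0110), also over both doses (1.12, edgeR adjusted p = 0.0310). With the block 2 of the 11 were called over both doses, where 21.5% of all genes were. Between 20 µM and 10 µM the ring subunit ATP6V0C was higher by 0.72 (edgeR adjusted p = 0.00858, and 0.0793 with the block) and ATP6V0E2 was lower, at -2.24 (edgeR adjusted p = 0.00925). With the block this difference of ATP6V0E2 was -1.34. Control 1, which has the number of the 20 µM library, was the lowest control for ATP6V0E2 (13.8 CPM). ATP6V0A1 (0.24), TCIRG1 (0.12), ATP6AP2 (0.30), RNASEK (0.07), ATP6V0C (-0.09) and ATP6V0E2 (0.16) did not pass at 10 µM. Neither did the low genes ATP6V1C2, ATP6V1G2, ATP6V0A4 and ATP6V0D2.

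The factors that assemble or regulate the pump had 4 of 13 tested genes higher and 0 lower at 10 µM, with a median of 0.30 (6 and 1 with the block). Over all genes 9.34% were higher and 9.79% lower at 10 µM, with a median of 0.05, and 31.3% were called with the block. DMXL2, of the RAVE complex that joins V1 to V0, rose by 0.63 (edgeR adjusted p = 0.00680), MEAK7, a TLDc protein, by 0.49 (edgeR adjusted p = 0.0226) and NCOA7, another TLDc protein, which binds the pump, by 0.95 (edgeR adjusted p = 0.0115). Between 20 µM and 10 µM NCOA7 was higher by a further 1.84 (edgeR adjusted p = 0.00192, 62.3 CPM against 17.4 ± 3.88 CPM, n = 3). Nutrient sensing at the lysosome was followed through 19 genes of the Rag GTPases, folliculin, mTORC1 and their regulators. Of these, 4 rose and 2 fell at 10 µM, with a median of 0.04. RRAGD, a Rag GTPase, rose by 1.68 (edgeR adjusted p = 0.00477) and FNIP2, a folliculin partner, by 0.93 (edgeR adjusted p = 0.00181), while RPTOR, the mTORC1 scaffold, fell by 0.49 (edgeR adjusted p = 0.00884).

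Of the 3 tested MiT-TFE factors, TFE3 rose at 10 µM by 0.44 (edgeR adjusted p = 0.0396) and was higher by a further 1.51 at 20 µM (edgeR adjusted p = 0.000806). It stood at 39.7 ± 6.51 CPM (SD, n = 4) in the controls, 58.8 ± 8.92 CPM (n = 3) at 10 µM and 167 CPM at 20 µM. Over both doses it stood at 1.01 and did not pass (edgeR adjusted p = 0.0897). TFEB stood at -0.12 at 10 µM (edgeR adjusted p = 0.829), and MITF at -0.02 (edgeR adjusted p = 0.933) and at -1.12 between 20 µM and 10 µM (edgeR adjusted p = 0.00537). These are transcript levels and say nothing of where the proteins were. Of 11 lysosomal ion channels and exchangers, which carry the counter-ions of the pump or release its gradient, 4 rose and 0 fell at 10 µM, with a median of 0.40. They included the chloride-proton exchangers CLCN6 (0.88), CLCN7 (0.85) and CLCN3 (0.85). Of 28 lysosomal hydrolases and membrane proteins 12 rose and 1 fell at 10 µM (22 and 1 with the block), with a median of 0.47. Among the 12 were the cholesterol carriers NPC2 (1.81) and NPC1 (0.73). Beside both lists, 9.34% of all genes were higher and 9.79% lower at 10 µM, and 31.3% were called with the block.

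The related rotary enzyme of mitochondria, the ATP synthase, had lower calls and no higher ones. Of 15 of its genes 0 rose and 7 fell at 10 µM, with a median of -0.36, among them ATP5ME (-0.77), ATP5F1D (-0.61) and ATP5F1E (-0.40), and 11 fell with the block. Between 20 µM and 10 µM 13 were lower and 0 higher, with a median of -1.02. Over both doses 2 fell and 0 rose (5 fell with the block). Of all genes, 9.79% fell at 10 µM, 14.6% were lower between 20 µM and 10 µM, and 6.69% fell over both doses. With the block 31.3% of all genes were called at 10 µM and 21.5% over both doses.

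**Figure D5:**
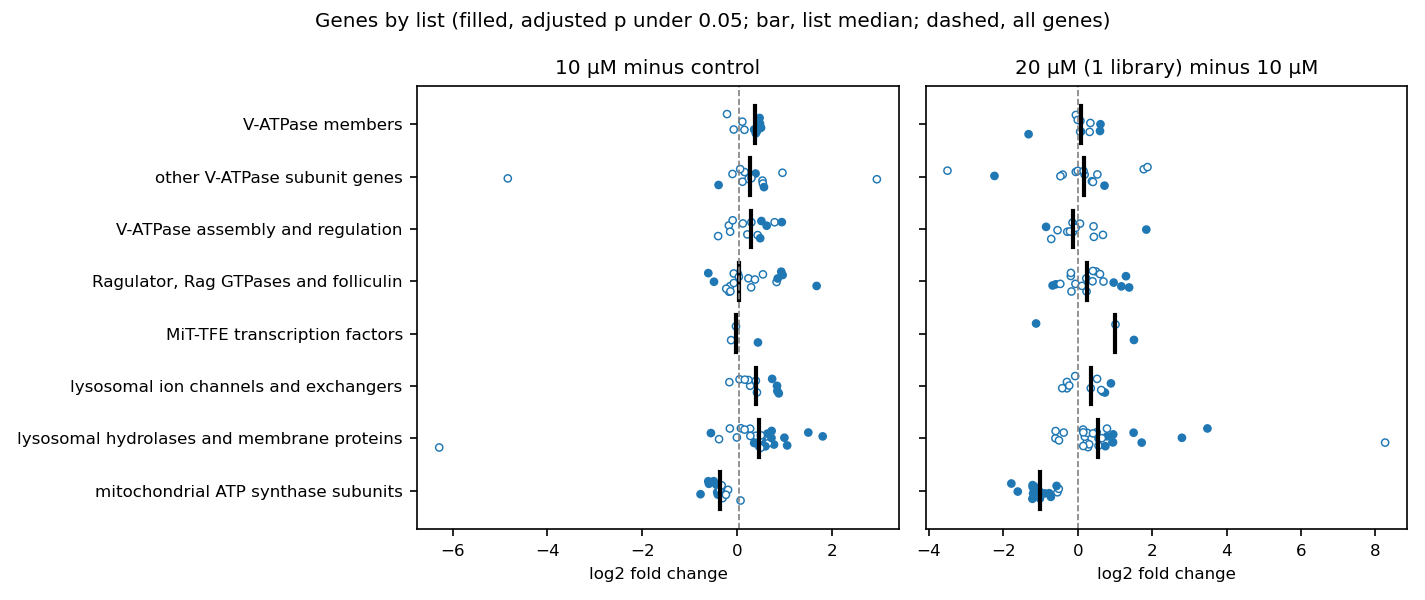
Log2 fold changes (x axis) of single genes (points, filled past an edgeR adjusted p of 0.05) in each list (y axis) at 10 µM against control (left) and in the 20 µM library against 10 µM (right), with bars at list medians and a dashed line at the median of all genes. On the left the median of the 10 members lies at 0.38, the lysosomal hydrolases and membrane proteins at 0.47 and the mitochondrial ATP synthase at -0.36.

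The genes whose pattern was most like that of the members, by Pearson's r of log2 CPM with the mean standardised profile of the 10 over the 8 libraries, were BBC3 (r = 0.987), UVRAG (r = 0.978), H4C8 (r = 0.977), GOLGA7 (r = 0.976) and WASHC2A (r = 0.974), out of 10659 genes ranked. All 8 points share their libraries and depth with the members. By Spearman's rho 0 of these 5 were among the top 5.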

How the data were processed

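RNA from 8 K562 libraries was sequenced after removal of ribosomal RNA with probes, per the labels' protocols. Gene counts were deposited as whole numbers that were not normalized, judging by the header and the values. The submitters' processing notes list hg38 and the tools HISAT2, StringTie, bcl2fastq 2.0, limma and DESeq2, with no role or order. The annotation and the use of strand are not given in the sources used here. Low values peak at 4 counts (2958 entries, against 401 at 1 count), and what 1 count stands for is not stated. Lines with no gene name (9, holding no values) did not enter the fits, and 0 columns were unused.

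Counts were filtered with filterByExpr, scaled by TMM (trimmed mean of M values, factors 0.903 to 1.09) and tested with glmQLFit and glmQLFTest of edgeR 4.0.16 in R 4.3.3, two-sided, with Benjamini-Hochberg adjustment over all genes at 0.05. SE is the log2 fold change over the square root of F. The fits were tested on simulated data, with changes larger than those of the members against control and no link between same-numbered libraries. CPM was computed from library totals without TMM factors. Positions and exon lengths came from GENCODE 29 on hg38 (19029 of 19447 symbols matched), and promoters from RefSeq. Protein sequences were not used here.

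Comparisons were both doses against control, and, in a fit with 3 levels, 10 µM against control and 20 µM against 10 µM. The overlap of groups with TMM factors was added after seeing the data. Alternatives were other scalings and filters, DESeq2 1.42.0, limma-voom (limma 3.58.1), the replicate block, the kind of library name (letters or digits) as a covariate and leaving out each library. Same-numbered control and treated libraries deviated together from their group means across 13101 genes, with correlations of 0.453, 0.251, 0.390 and 0.262 for replicates 1 to 4, all above 0.1, so the numbers were taken to pair the libraries. This pairing comes from the data, not from the labels. The main fits do not use it, so their p-values ignore the pairing, and results with the replicate block are given as an alternative. Named genes are the 10 members, the other pump genes that were tested, the 3 genes of smallest p in each further list, the MiT-TFE factors and the 5 genes most like the members (mean log2 CPM at least 1, prior count 2). Of the genes this rule names, 1 is not reported here. Overlapping genes were named after their values were seen. The members and lists were chosen with earlier results of these data known.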

Additional observations from a re-analysis of the deposited data

Results flagged for a closer look

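Between the single 20 µM library and the 10 µM libraries, 5 of the 24 tested genes of the pump differed by edgeR's test of that contrast, where 26.3% of all genes were called. The log2 fold changes were -1.32 for ATP6V1A, 0.60 for ATP6V1B2, 0.61 for ATP6V1H, 0.72 for ATP6V0C and -2.24 for ATP6V0E2. ATP6V1H and ATP6V0C did not pass with the replicate block, where ATP6V1A stood at -0.89 and ATP6V0E2 at -1.34. The 20 µM dose has 1 library, so dose and library cannot be told apart.

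Among 42 checks for a library far from the rest of its group, 2 stood out, where chance gives about 1 in 20. ATP6V1C1 was low in 10 µM replicate 2, at 124 CPM against 149 to 150.4 CPM in the other treated libraries. ATP6V1C2 was high in control 4, at 4.37 CPM against 0.0616 to 0.205 CPM in the other controls. It shares 29.7% of its exon bases with PDIA6 on the other strand.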

How the results depend on the processing

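Over both doses, edgeR called 1855 genes, and 3241 were called by DESeq2, 2815 with the replicate block and 3348 with the kind of library name as a covariate. At 10 µM against control the 2842 calls became 4657 with the replicate block and 4665 with that covariate. The number of members called was 4 and 6 with the replicate block, as without it, with the same genes. Between 20 µM and 10 µM the members' median of 0.08 became 0.23 with the replicate block and 0.20 with the covariate. By Spearman's rho 0 of the 5 most similar genes were shared. Leaving out 1 library at a time gave 64 to 3021 genes called over both doses, 1364 to 3021 at 10 µM and 2857 to 4300 between 20 µM and 10 µM. The members called ranged over 0 to 5, 2 to 5 and 3 to 4, and their median over 0.38 to 0.49, 0.29 to 0.41 and 0.08 to 0.11. The digit-named libraries alone (2 against 2) hold 10 µM replicates 2 and 3 and no 20 µM library. There ATP6V1B2 (0.50) and ATP6V1E1 (0.43) passed in treated against control. The treated libraries with letter names are the 20 µM library and 10 µM replicate 4. In the letter-named libraries alone 0 genes of the table passed, with ATP6V1B2 at 0.74 and ATP6V1E1 at 0.43. Between 20 µM and 10 µM the members called went from 3 to 2 with the replicate block, which ended the call of ATP6V1H and of no other member. For named genes, 0 called values changed sign under the alternatives run. The contrast of 20 µM with 10 µM could not be fitted without the 20 µM library. The lowest count of a member in any library was 2200, and the effect of depth was not tested. Where not stated otherwise, the cause of a change was not tested.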

Other observations

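ATP6V1FNB, the gene next to ATP6V1F on the same strand, and ATP6AP1L, a relative of ATP6AP1, were in no list and were chosen after their values were seen. ATP6V1FNB stood at 1.24 to 3.54 CPM in the controls, 2.32 to 5.26 CPM at 10 µM and 47.3 CPM at 20 µM. Its log2 fold change between 20 µM and 10 µM was 3.69 (edgeR adjusted p = 0.00132). It lies within the span of KCP, which stood at 231 CPM in the same library and is on the other strand, and the exons of the pair share 0 bases. ATP6V1F stood at 146 CPM in that library. ATP6AP1L stood at 0.943 ± 0.299 CPM (SD, n = 4) in the controls, 1.59 ± 0.408 CPM (n = 3) at 10 µM and 4.46 CPM at 20 µM, and its difference between 20 µM and 10 µM of 1.49 did not pass (edgeR adjusted p = 0.0527).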
